A study of Mus musculus with 6 samples.

Results

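The transcription factors that direct T helper lineages or shape effector regulatory T cells (Tregs) were followed in Tregs sorted from B16.F10 melanomas. They are 9 of the 12153 genes with a value, chosen by name: *Tbx21*, *Gata3*, *Rora*, *Bcl6*, *Prdm1*, *Irf4*, *Batf*, *Maf* and *Bhlhe40*. The question was whether Tregs without the glucocorticoid receptor (GR, encoded by *Nr3c1*) drift toward Th1, Th2, Th17 or Tfh programs. Of the 6 RNA-Seq libraries, 3 came from control mice, labelled as carrying floxed *Nr3c1*, and 3 from Nr3c1-Foxp3Cre mice, which carry floxed *Nr3c1* together with Foxp3-YFP/Cre. B16.F10 is a mouse melanoma line, and all tumors were collected on day 15 after inoculation. The *Foxp3* promoter drives YFP and Cre, so deletion is directed to cells that express *Foxp3*, while other host cells and the tumor cells keep GR. The sample labels give a sort by CD45, CD4 and CD25, the study's methods a sort by Foxp3-YFP, and the control label names no YFP allele, so a difference in sorting cannot be told apart from genotype. Neither ages nor separate animals are stated for the libraries, and p-values therefore measure only the spread between these samples, which may be technical.

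A CD4+ T cell takes on a helper program under the control of a lineage factor: T-bet (*Tbx21*) for Th1, GATA3 for Th2, nuclear receptors such as RORα for Th17 and BCL6 for Tfh. Tregs can express the same factors at lower or different levels without losing *Foxp3*, and are then thought to restrain the matching helper response. A further group, BATF, IRF4, BLIMP-1 (*Prdm1*), c-MAF and BHLHE40, is induced by antigen receptor and cytokine signals and shapes the effector state of Tregs in tissues and tumors. GR is a hormone-activated transcription factor that binds DNA directly and also acts on AP-1, the family of factors to which the BATF partners JUN and JUNB belong.

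Promoter sequence was available in RefSeq (GRCm38.p6) for 7 of the 9 factors, as 8 promoters, since *Bcl6* has a pair of start sites. The 250 bases before each start were searched on both strands for letters that link the factors to GR and to each other. The full GR site was searched as an inverted repeat of the half-site AGAACA with 3 bases between the copies. It was found in 0 of the 8, against 3, or 0.00913%, of 32851 promoters. These letters are so rare that a search of 8 promoters cannot show a lack of GR sites. The half-site AGAACA alone was found in 1 of 8, against 16.1% of all promoters. The AP-1 site was searched as TGANTCA, with any base at N, letters that include sites BATF binds with a JUN partner. It was found in 1 of 8, against 6.75%, as TGAATCA before *Prdm1*, with A at N. The E-box CACGTG, bound by BHLHE40 among others, was found in 1 of 8, against 6.02%. The GATA site AGATAA was found in 1 of 8, against 9.99%. The matches to the GR half-site, the AP-1 letters and the E-box are shown because they fall before *Bcl6* and *Prdm1*, factors known to repress each other. Each window has 60 bases and is written 5′ to 3′ on the strand of the gene, with the matched letters, on either strand, in capitals.
Bcl6 GR half-site, chr16:23981375-23981434, minus strand, 124 bases before the start: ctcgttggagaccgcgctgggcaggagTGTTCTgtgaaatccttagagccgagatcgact
Bcl6 E-box, chr16:23988880-23988939, minus strand, 60 bases before the start: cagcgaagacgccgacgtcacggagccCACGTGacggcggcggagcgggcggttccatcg
Prdm1 AP-1 site, chr10:44458764-44458823, minus strand, 48 bases before the start: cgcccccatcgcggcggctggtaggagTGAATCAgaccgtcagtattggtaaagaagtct
These matches describe letters and not binding, and no binding was measured here.

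All values are log2 CPM, that is read counts scaled to one library total, after quantile normalization by the authors, so read depth is unknown and the number of libraries limits the precision. Deletion was checked on *Nr3c1*, which was between 6.88 and 7.59 log2 CPM in the control libraries and between 5.45 and 6.14 in the Nr3c1-Foxp3Cre libraries, lower by its estimate of -1.38 on the log2 scale (limma SE 0.21, adjusted p = 0.120). *Tsc22d3*, a GR target gene, had a log2 fold change of -1.56 (limma adjusted p = 0.0342). Its fold change stayed between -1.70 and -1.37 in 19 alternatives, but the adjusted p was above 0.05 in 6 of them: 0.221 without a trend, 0.137 with the replicate block, 0.0712 without control replicate 3, and 0.0639, 0.140 and 0.154 without Nr3c1-Foxp3Cre replicate 1, 2 or 3. *Nr3c1* passed with the melanoma covariate (adjusted p = 0.00415) and with the myeloid covariate (adjusted p = 0.00731). The Treg markers *Foxp3*, *Il2ra* and *Cd4* had values in every library, with log2 fold changes of 0.05, 0.16 and -0.02. *Foxp3* itself was at only 3.39 to 4.42 log2 CPM in control and 3.50 to 4.47 in Nr3c1-Foxp3Cre libraries. The 7 Treg and T cell markers summed to 3215 to 4138 CPM in control and 3433 to 3860 CPM in Nr3c1-Foxp3Cre libraries. Over all 12153 genes, 7 passed an adjusted p of 0.05 in limma, of which 1 was higher and 6 were lower, and 396 had an unadjusted p under 0.05. Markers of other cells were present, the 7 melanoma markers at a summed 3409 to 9134 CPM in control and 3802 to 9537 CPM in Nr3c1-Foxp3Cre libraries. In such bulk samples, fewer cells of a type and less RNA per cell cannot be told apart.

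No difference between the genotypes was detected for any of the 9 factors. In limma's test, 0 of 9 passed an adjusted p of 0.05, against 0.0576% of all genes (0.00823% higher and 0.0494% lower). An unadjusted p under 0.05 was reached by 0 of 9, against 3.26% of all genes (1.61% higher and 1.65% lower). That count became 1 with sample quality weights (*Rora*), 1 with the myeloid covariate described below (*Prdm1*) and 2 without control replicate 2 (*Rora* and *Irf4*), and it was 0 in the other 16 of 19 alternatives. The count over all 12153 genes rose in the same 3 fits, from 396 in the main fit to 1376, 1026 and 703. In the main fit the lowest unadjusted p of the 9 was 0.115, for *Irf4*, and each adjusted p rounded to 1.0. The values of the genotypes overlapped for each of the 9, whereas they did not overlap for 901 of all genes, or 7.41% (3.69% higher and 3.73% lower). The estimates were higher for 3 factors and lower for 6, with a median log2 fold change of -0.0090 against -0.00145 for all genes. A p above the threshold does not show that a factor was unchanged, so each result is given below with the 95% confidence interval of its fold change.

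**Figure D1:**
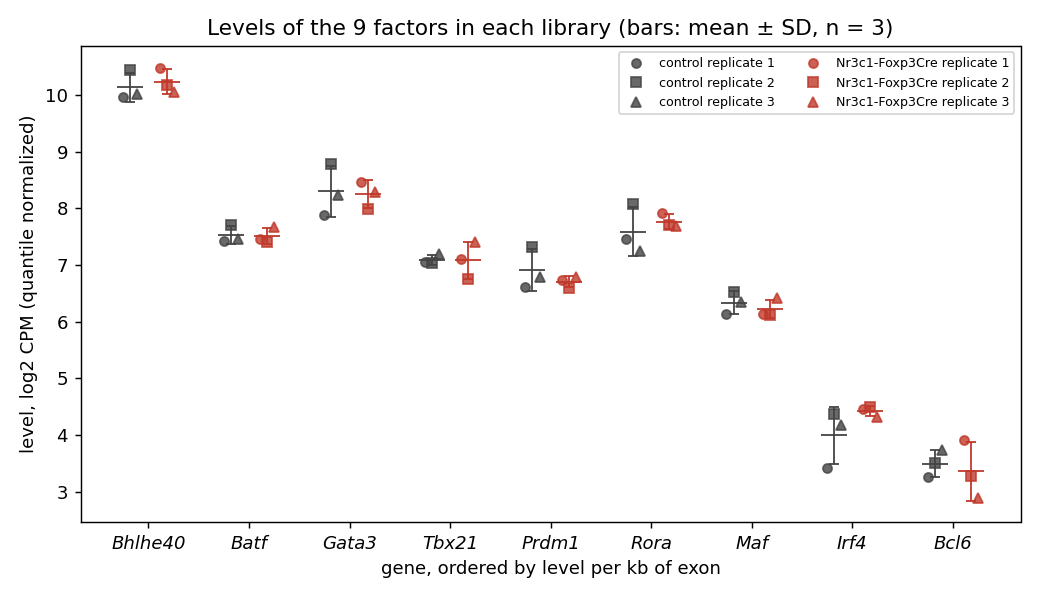
Level of each factor, in log2 CPM, in the 3 control (gray) and 3 Nr3c1-Foxp3Cre (red) libraries, with horizontal bars for the mean and whiskers for the SD, ordered by level per kb of exon. The points of the genotypes overlap for each of the 9 factors, and the libraries spread most for *Irf4* in control and *Bcl6* in Nr3c1-Foxp3Cre Tregs.

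*Tbx21* encodes T-bet, which drives Th1 genes and *Cxcr3*. It lies on chr11:97098071-97115331 of mm10 (minus strand, ENSMUSG00000001444.2). Its level was 7.05, 7.04 and 7.20 log2 CPM in the control libraries and 7.11, 6.75 and 7.40 in the Nr3c1-Foxp3Cre libraries. Nr3c1-Foxp3Cre replicates 2 and 3 held the lowest and the highest value of all 6, on either side of the control libraries. The fold change was 0.995, with an interval of 0.782 to 1.27 (limma unadjusted p = 0.963).

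*Gata3* encodes the Th2 factor, which many tissue Tregs also use, and lies on chr2:9857078-9890034 (minus strand, ENSMUSG00000015619.10). It was at 7.88, 8.78 and 8.24 log2 CPM in control and at 8.47, 7.99 and 8.28 in Nr3c1-Foxp3Cre libraries. The control libraries spanned the whole range, from the lowest in replicate 1 to the highest in replicate 2. The estimated fold change was 0.963 (interval 0.692 to 1.34, limma unadjusted p = 0.80).

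*Rora* encodes RORα, a nuclear receptor that takes part in the Th17 program and is expressed in tissue Tregs. It lies on chr9:68653786-69388246 (plus strand, ENSMUSG00000032238.17). It was at 7.46, 8.07 and 7.24 log2 CPM in control and at 7.92, 7.70 and 7.68 in Nr3c1-Foxp3Cre libraries. The Nr3c1-Foxp3Cre libraries lay close together and within the control range, below control replicate 2 and above the other two. This gave a fold change of 1.13 (interval 0.839 to 1.52, limma unadjusted p = 0.379). Without control replicate 2 the log2 fold change was 0.42 (95% interval 0.14 to 0.69, limma unadjusted p = 0.00752, adjusted p = 0.634) in place of 0.18, and without control replicate 3 it was 0.0012, so single control libraries set its size. With sample quality weights it was 0.47 (limma unadjusted p = 0.0154, adjusted p = 0.326).

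*Bcl6* encodes the Tfh repressor and lies on chr16:23965052-23988852 (minus strand, ENSMUSG00000022508.5). Its level was 3.27, 3.50 and 3.73 log2 CPM in control and 3.91, 3.28 and 2.90 in Nr3c1-Foxp3Cre libraries. Both the highest and the lowest value came from Nr3c1-Foxp3Cre libraries. The fold change was 0.908, with the widest interval of the 9 on the log2 scale, 0.582 to 1.42 as a fold (limma unadjusted p = 0.637).

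*Prdm1* encodes BLIMP-1, a repressor that opposes *Bcl6* and marks effector Tregs that make IL-10. It lies on chr10:44437177-44528501 (minus strand, ENSMUSG00000038151.13). It was at 6.61, 7.32 and 6.79 log2 CPM in control and at 6.74, 6.60 and 6.78 in Nr3c1-Foxp3Cre libraries. Only control replicate 2 stood clear of the other 5 libraries. Its estimated fold change was 0.870 (interval 0.668 to 1.13, limma unadjusted p = 0.264), and without control replicate 2 the log2 fold change was 0.0055 in place of -0.20.

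*Irf4* encodes a factor induced by antigen receptor signals that binds DNA together with BATF, and it had the largest estimate of the 9. It lies on chr13:30749226-30766976 (plus strand, ENSMUSG00000021356.10). It was at 3.43, 4.38 and 4.18 log2 CPM in control and at 4.46, 4.49 and 4.32 in Nr3c1-Foxp3Cre libraries. Control replicate 1 was the lowest by far, and control replicate 2 lay above the lowest Nr3c1-Foxp3Cre library. From control to Nr3c1-Foxp3Cre, the fold change was 1.35 (interval 0.916 to 1.98). Without control replicate 1 the log2 fold change was 0.15 in place of 0.43, and without control replicate 2 it was 0.62 (95% interval 0.062 to 1.2, limma unadjusted p = 0.0331, adjusted p = 0.822).

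*Batf* encodes the AP-1 family partner of IRF4 and lies on chr12:85686669-85709087 (plus strand, ENSMUSG00000034266.6). Its level was 7.42, 7.71 and 7.46 log2 CPM in control and 7.46, 7.41 and 7.68 in Nr3c1-Foxp3Cre libraries. The ranges of the genotypes nearly coincided. The fold change was 0.994, with the narrowest interval of the 9, 0.829 to 1.19 (limma unadjusted p = 0.940).

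*Maf* encodes c-MAF, an activator of *Il10* that is also used by Tfh and Th17 cells, and lies on chr8:115682942-115707794 (minus strand, ENSMUSG00000055435.6). It was at 6.13, 6.53 and 6.35 log2 CPM in control and at 6.14, 6.12 and 6.42 in Nr3c1-Foxp3Cre libraries. Nr3c1-Foxp3Cre replicates 1 and 2 matched control replicate 1, the lowest control library. A fold change of 0.928 was estimated (interval 0.750 to 1.15, limma unadjusted p = 0.446). On the log2 scale it was -0.11, and without 1 library it ran from -0.21 (without control replicate 1) to -0.011 (without control replicate 2). The exons of *Maf* share 440 bases, or 5.34%, with the antisense gene Gm15655, the largest such overlap of the 9. Strand use in counting was not given in the sources used here, and reads from such a pair cannot be told apart without it. Exons of *Gata3*, *Rora*, *Bcl6* and *Bhlhe40* also share bases with other genes, by 0.313% to 3.90% of the factor's exons for each such gene.

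*Bhlhe40* encodes a repressor that limits *Il10* and supports inflammatory cytokines, and lies on chr6:108660629-108666925 (plus strand, ENSMUSG00000030103.11). It was at 9.97, 10.43 and 10.01 log2 CPM in control and at 10.48, 10.17 and 10.04 in Nr3c1-Foxp3Cre libraries. The highest library of each genotype exceeded the other two by more than the genotypes differed. The fold change was 1.07 (interval 0.835 to 1.37, limma unadjusted p = 0.556).

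**Figure D2:**
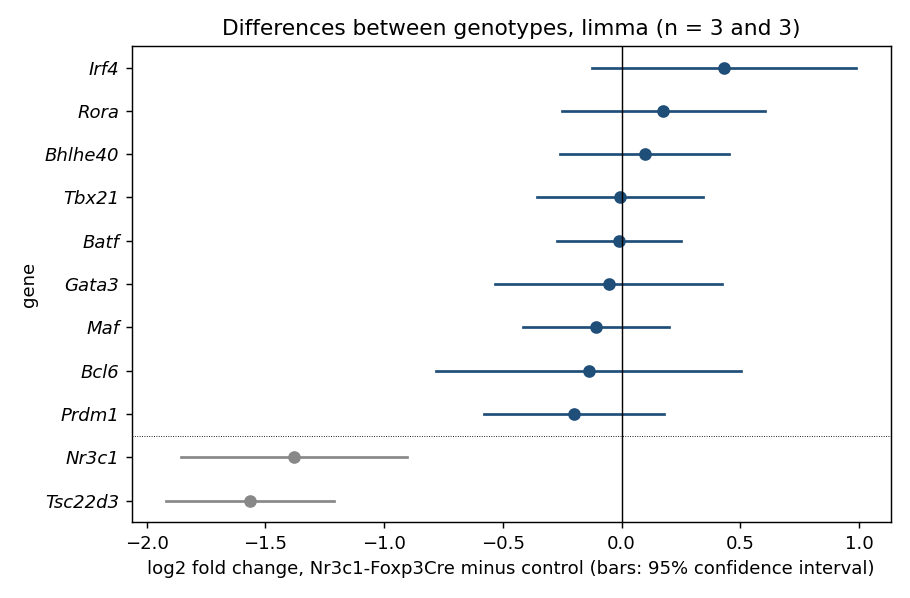
Log2 fold change of each factor (blue) and of *Nr3c1* and *Tsc22d3* (gray), Nr3c1-Foxp3Cre minus control, with the 95% confidence interval from limma. The 9 blue intervals cross 0, from the narrowest for *Batf* to the widest for *Bcl6*, while both gray intervals lie below -0.9.

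Factors known to oppose each other were compared within each library. A single scale factor of a library cancels in such a difference, but the quantile normalization, which acts on ranks, need not. The log2 difference *Tbx21* minus *Gata3* was -0.84, -1.75 and -1.04 in control and -1.36, -1.24 and -0.88 in Nr3c1-Foxp3Cre libraries. The mean was -1.21 ± 0.48 (SD, n = 3) in control and -1.16 ± 0.25 (SD, n = 3) in Nr3c1-Foxp3Cre Tregs, and an exact two-sided permutation test detected no difference (p = 1.0, where 0.1 is the smallest that 3 against 3 allow). The log2 difference *Prdm1* minus *Bcl6* was 3.35, 3.82 and 3.05 in control and 2.82, 3.32 and 3.89 in Nr3c1-Foxp3Cre libraries. Its means were 3.41 ± 0.38 (SD, n = 3) and 3.34 ± 0.53 (SD, n = 3), with an exact two-sided permutation p of 0.9. For both balances the genotype means lay closer together than 1 SD of either genotype, and tests of this size cannot reach a p of 0.05. In all 2 balances were computed, and both Benjamini-Hochberg adjusted permutation p-values were 1.0.

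Per kb of merged exon, the factors kept one order in all 6 libraries. *Bhlhe40* was the highest, at 7.90 log2 CPM per kb in control and 8.0 in Nr3c1-Foxp3Cre Tregs, followed by *Batf* at 7.03 in both. *Gata3* was at 6.31 and 6.25 log2 CPM per kb, and *Tbx21* was at 5.78 and 5.77. Of the lineage factors, the Th2 and Th1 factors were thus the highest per kb of exon. Their place above *Rora* depends on the length for *Tbx21*. In log2 CPM without it, *Rora* had means of 7.59 in control and 7.77 in Nr3c1-Foxp3Cre libraries, above *Tbx21* at 7.09 in both. *Prdm1* was at 4.43 and 4.23, *Rora* at 3.88 and 4.06, and *Maf* at 3.29 and 3.18 log2 CPM per kb. *Irf4*, at 1.70 and 2.13, and *Bcl6*, at 0.76 and 0.62, were the lowest. Each factor lay above the next in 6 of 6 libraries, by a mean log2 difference between 0.36 ± 0.26 (SD over 6 libraries), for *Prdm1* over *Rora*, and 1.45 ± 0.32, for *Tbx21* over *Prdm1*. The exon length was that of all annotated transcripts merged, from 1406 bases for *Batf* to 13071 for *Rora*, and it enters the order directly.

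Most of the factors varied together between the control libraries. Control replicate 2 was the highest control library for 7 of the 9 factors, all but *Tbx21* and *Bcl6*, and control replicate 1 was the lowest for 7, all but *Tbx21* and *Rora*. Among the Nr3c1-Foxp3Cre libraries, replicate 1 was the highest for 4 and replicate 2 the lowest for 5, while replicate 3 was the highest for 4 factors and the lowest for 4 others. The mean deviation of the 9 factors from their genotype mean was -0.241, 0.264 and -0.023 in the control and 0.125, -0.117 and -0.00811 in the Nr3c1-Foxp3Cre libraries. The melanoma markers had a mean of 8.68, 7.30 and 8.35 log2 CPM in control and 8.16, 8.63 and 7.38 in Nr3c1-Foxp3Cre libraries. In control this order was the reverse of that of the mean deviations, whereas Nr3c1-Foxp3Cre replicate 3 had the lowest melanoma markers of its genotype and a mean deviation below that of replicate 1. Across the 6 libraries, which share one normalization, Pearson's r with that mean was negative for 8 of 9 factors. This r was -0.985 for *Batf*, -0.874 for *Maf*, -0.796 for *Gata3* and -0.776 for *Prdm1*, and 0.233 for *Bcl6*. These counts are not set against a share of all genes, so the pattern is not shown to be particular to the 9 factors. The mean of the T cell genes *Cd4*, *Cd3d*, *Cd3e*, *Cd3g* and *Trac* had a positive r with all 9 factors and an r of -0.722 with the melanoma markers. Centering each library on those T cell genes made the pooled SD smaller for 9 of 9 factors, with a median of 0.227 in place of 0.268, and called 0 of 9. Before centering, the median pooled SD over all genes was 0.218. The centering was chosen after seeing the data, on genes with a positive r with all 9 factors, so the smaller SD is not a test. When the melanoma marker level entered the fit as a covariate, 0 of 9 factors were called as well. The part of melanoma cells in the spread was not tested further.

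**Figure D3:**
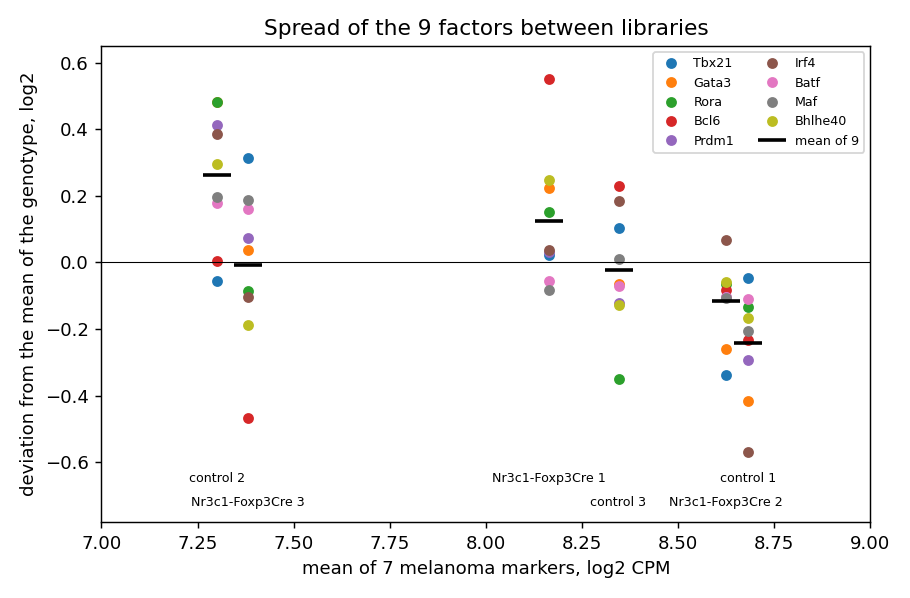
Deviation of each factor from the mean of its genotype (log2, colored points, black bar for the mean of the 9) against the mean of 7 melanoma markers (log2 CPM), with the 6 libraries named below their points. Control replicate 2, with the lowest melanoma markers at 7.30, has the highest mean deviation of 0.264, and control replicate 1, with the highest at 8.68, has the lowest of -0.241, while the 9 factors of Nr3c1-Foxp3Cre replicate 3, at 7.38, lie on both sides of 0.

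Among the factors themselves, the pairs that moved most alike over the 6 libraries were *Maf* with *Batf* (r = 0.897), *Prdm1* with *Gata3* (r = 0.886), *Bhlhe40* with *Rora* (r = 0.877) and *Maf* with *Prdm1* (r = 0.847). The lowest r was -0.345, for *Batf* with *Bcl6*. These values share the library differences above and describe 6 points. Of 7830 genes with a mean of at least 4 log2 CPM, those most like each factor were *Actr8* for *Tbx21* (r = 0.984), *Cyp11a1* for *Gata3* (r = 0.993), *Sdc4* for *Rora* (r = 0.989) and *Kpna6* for *Bcl6* (r = 0.986). For *Rora* the next was *Ikzf2*, which encodes the Treg factor Helios (r = 0.983), and for *Gata3* it was *Jak3*, a kinase of cytokine receptors (r = 0.993). For the effector factors they were *Bcl2l1* for *Prdm1* (r = 0.986), *Map3k4* for *Irf4* (r = 0.990), *Cpsf7* and 2010111I01Rik for *Batf* (r = 0.984 for both), *Tbc1d17* for *Maf* (r = 0.996) and *Gys1* for *Bhlhe40* (r = 0.991). The next genes were *Map2k4* for *Tbx21*, *March7* for *Bcl6*, *Slc43a2* for *Prdm1*, *Leng8* for *Irf4*, *Rp9* for *Maf* and *Ankrd11* for *Bhlhe40*. Over 6 points such values are common: from 5 genes, for *Bcl6*, to 77, for *Gata3*, had an r above 0.95.

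Markers of other cells that can express some of these factors were read beside them. Macrophages express *Maf*, *Prdm1* and *Bhlhe40*, and the 10 myeloid markers were all lower in Nr3c1-Foxp3Cre libraries by their estimates, with a median log2 fold change of -0.40, 0 of 10 with an unadjusted p under 0.05 in limma, and summed levels of 411 to 605 CPM in control and 294 to 589 CPM in Nr3c1-Foxp3Cre libraries. With the mean of the myeloid markers as a covariate, the log2 fold change of *Prdm1* was -0.37 (95% interval -0.72 to -0.022, limma unadjusted p = 0.0395, adjusted p = 0.573). In the same fit that of *Gata3* was -0.34 in place of -0.055 (limma unadjusted p = 0.0508, adjusted p = 0.594) and that of *Tbx21* was -0.16 in place of -0.0074. *Maf* was at -0.22 in place of -0.11, and *Bhlhe40* at -0.024 in place of 0.097. Plasma cells express *Prdm1* and *Irf4*, and B and plasma cell markers summed to 19.0 to 38.2 CPM in control and 17.2 to 26.3 CPM in Nr3c1-Foxp3Cre libraries. *Cd79a*, *Ms4a1* and *Pax5* had no value. *Jchain*, a plasma cell gene, was between 2.30 and 3.89 log2 CPM in control libraries, at 3.48 in Nr3c1-Foxp3Cre replicate 1 and at -3.96 in the other two. The 5 ILC2, mast cell and basophil markers had values for *Kit* and *Il7r* alone, and these summed to 110 to 199 CPM in control and 57.3 to 106 CPM in Nr3c1-Foxp3Cre libraries, with *Il7r*, which T cells also express, lower without overlap (log2 fold change -0.90). Dendritic cell markers summed to 31.0 to 49.1 and 34.3 to 44.0 CPM, and of 5 NK and CD8 T cell markers *Cd8b1* alone had a value. All 4 fibroblast markers were lower by their estimates, 2 of them with an unadjusted p under 0.05 in limma, against 3.26% of all genes. Of the 4, *Col1a1* alone was lower without overlap (log2 fold change -1.87, limma adjusted p = 0.120). The fibroblast sums did not overlap either, at 150 to 367 CPM in control and 59.4 to 142 CPM in Nr3c1-Foxp3Cre libraries. The part of these cells in the values of the factors was not tested, apart from the myeloid and melanoma covariates above.

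The programs that the factors direct were read from 7 lists: relatives of the factors, their partners, genes of Th1, Th2, Th17 and Tfh cells, and genes of effector Tregs. Of their 115 genes 95 had a value, and 0 of 95 passed an adjusted p of 0.05 in limma. By their estimates 45 were higher and 50 lower. An unadjusted p under 0.05 was reached by 12, or 12.6%, of which 5 were higher and 7 lower, against 3.26% of all genes. The genotypes did not overlap for 8, or 8.42%, against 7.41% of all genes. The lists were chosen with earlier results of these data known, so these shares describe the lists and do not test them.

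Genes of the Th1 program, which T-bet drives, had the most unadjusted calls, 2 higher and 3 lower of 16, with a median log2 fold change of -0.076. *Tnf*, an inflammatory cytokine, had a log2 fold change of 0.72, and *Il12rb2*, the inducible chain of the IL-12 receptor, of -1.09, each without overlap. *Il18rap*, a chain of the IL-18 receptor, was higher by 0.31, and the chemokine *Xcl1* and the granule gene *Nkg7* had log2 fold changes of -0.59 and -0.39, with overlap. These 3 were named after their values were seen. The Th1 hallmarks *Ifng* and *Cxcr3* had log2 fold changes of 0.20 and -0.09. The estimates of Th1 genes thus pointed both ways, and none passed the adjusted threshold. The T-bet relative *Eomes* had no value.

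Of 13 Th2 genes 8 had a value, 4 higher and 4 lower by their estimates, and the cytokine genes *Il4* and *Il13* had none. *Ccr8*, a chemokine receptor of Th2 cells and tumor Tregs, was lower without overlap (log2 fold change -0.53), while the IL-33 receptor gene *Il1rl1* was at 0.35 and *Ccr4* at 0.12 with overlap. Of 12 Th17 genes 5 had a value, and *Il17a*, *Il17f* and *Il23r* had none. None of the 5 had an unadjusted p under 0.05, and the log2 fold change of *Ccr6* was 0.07. Of 14 Tfh genes 11 had a value, with 0 of 11 at an unadjusted p under 0.05, and *Il21* had none. *Cxcr5*, the receptor that leads Tfh cells to B cell follicles, had a log2 fold change of 0.83 with overlap, from 1.66 to 3.33 log2 CPM in control and from 3.05 to 3.61 in Nr3c1-Foxp3Cre libraries. This became 0.42 without control replicate 1, 1.25 without control replicate 3 and 0.11 with sample quality weights. *Pdcd1* and *Icos* were at log2 fold changes of -0.34 and -0.05.

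All 17 effector Treg genes had a value, 5 higher and 12 lower by their estimates, with a median log2 fold change of -0.11. *Lag3*, an inhibitory receptor, was lower without overlap (log2 fold change -0.93), and *Nt5e*, which encodes the adenosine-forming CD73, was higher without overlap (0.56, but 0.30 without control replicate 1 and 0.25 with sample quality weights). *Il10*, a target of BLIMP-1 and c-MAF, was at 4.81, 5.87 and 5.59 log2 CPM in control and at 5.56, 4.35 and 5.19 in Nr3c1-Foxp3Cre libraries. Its genotypes overlapped (log2 fold change -0.39). Without 1 library this ran from -0.70 (without control replicate 1) to -0.045 (without Nr3c1-Foxp3Cre replicate 2), and with the myeloid covariate it was -0.91 (limma adjusted p = 0.126). *Klrg1*, another gene of effector Tregs, was at 0.15.

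The partners of the factors held the list gene with the lowest p. *Id2*, which encodes an inhibitor of E proteins, was at 9.09, 9.64 and 9.22 log2 CPM in control and at 8.78, 8.47 and 8.64 in Nr3c1-Foxp3Cre libraries. Each Nr3c1-Foxp3Cre library lay below each control library (log2 fold change -0.69, limma adjusted p = 0.544). *Ahr*, a ligand-activated factor of Th17 cells and Tregs, was at 4.57, 5.06 and 4.83 log2 CPM in control and at 5.57, 5.13 and 5.51 in Nr3c1-Foxp3Cre libraries, again without overlap (log2 fold change 0.58, limma unadjusted p = 0.00864). *Ikzf4*, which encodes the Treg factor Eos and was named after its values were seen, was higher by 0.43 with overlap. The other 20 of 23 partners, among them the JUN and STAT genes, had unadjusted p-values above 0.05. Of 15 relatives with a value, *Mafk*, a small MAF protein, was higher without overlap (log2 fold change 0.22). *Maff*, named after its values were seen, was lower with overlap (log2 fold change -1.07), at levels of at most 2.0 log2 CPM. *Irf8*, the relative of *Irf4*, was at a log2 fold change of -0.07, and the BATF relative *Batf3* had no value.

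**Figure D4:**
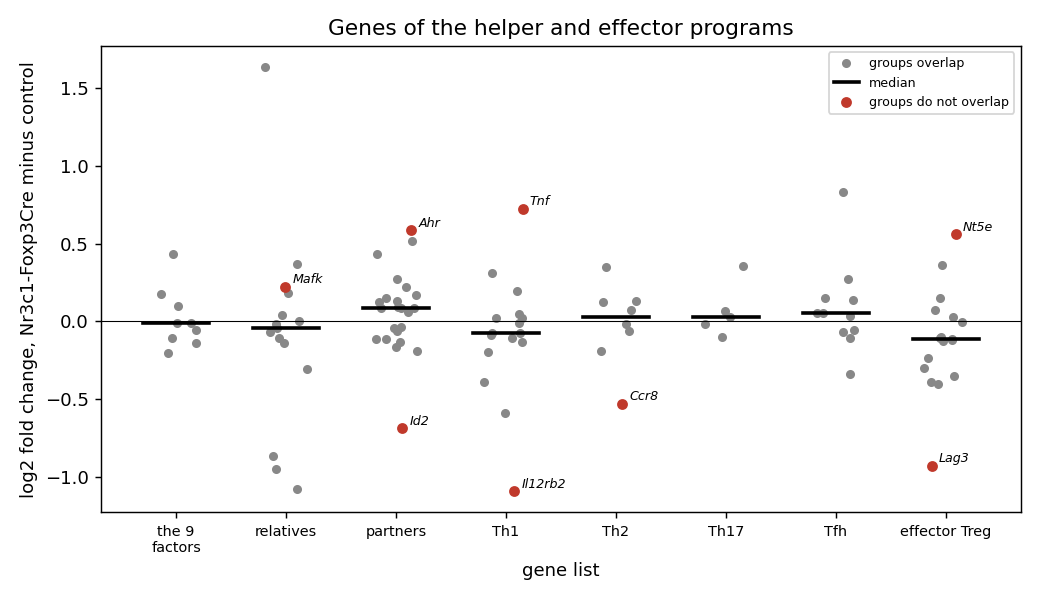
Log2 fold change, Nr3c1-Foxp3Cre minus control, of each gene with a value among the 9 factors and the 7 lists, with a black bar for the median of a list. Red points, named, are the 8 genes whose genotypes did not overlap (4 higher, 4 lower), and none of the 9 factors is among them.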

How the data were processed

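Bulk RNA-Seq was measured in 6 libraries of sorted tumor Tregs, 3 per genotype. Per the study's methods and the labels, the authors used Cutadapt for trimming, STAR for alignment (mm10) and RSEM for gene-level estimates (GENCODE M21), dropped genes of low CPM and applied quantile normalization. The deposited values are log2 CPM after that step by the authors, and each library sums to 999633 or 999634 CPM on the linear scale. Quantile normalization hides read depth, so no counting interval is given. Every library has the same distribution of values.

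Genes were fitted together with limma 3.58.1 in R 4.3.3 (lmFit, eBayes with a trend, genotype only), with Benjamini-Hochberg adjustment over 12153 genes at 0.05. The study's voom weights need counts and were not used. The fit was tested on simulated data. Positions and exon lengths came from GENCODE M21, where 12130 genes matched by identifier. Balances within a library were compared by exact permutation in scipy 1.17.1. The 9 factors and all lists were chosen with earlier results of these data known. Genes named were the 9 factors, the deletion and cell type checks, in each list the highest and lowest log2 fold change among genes without overlap, hallmark genes, and the 2 genes most like each factor. Alternatives covered eBayes without a trend or robust, vooma and sample quality weights, low-value filters, log2(CPM + 1), a floor, other scalings, melanoma or myeloid covariates, the replicate block, and leaving out each library. Centering on T cell genes was chosen after seeing the data. Protein sequences were not used here, and some genes named by the rule are not reported here.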

Additional observations from a re-analysis of the deposited data

How the results depend on the processing

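The 9 factors had no call at an adjusted p under 0.05 in any of 19 alternatives. Their lowest adjusted p was 0.326, for *Rora* with sample quality weights (log2 fold change 0.47). Of their 171 alternative values 156 kept direction and 15 turned it. With sample quality weights *Gata3* was at 0.020, *Batf* at 0.058 and *Icos* at 0.037. With T cell centering *Tbx21* was at 0.032, *Batf* at 0.030 and *Cd4* at 0.019. With the myeloid covariate *Bhlhe40* was at -0.024, *Foxp3* at -0.36, *Il2ra* at -0.069, *Ccr4* at -0.080, *Ccr6* at -0.13 and *Klrg1* at -0.22. Leaving out 1 library gave -0.16 to 0.16 for *Tbx21*, -0.26 to 0.19 for *Gata3*, -0.41 to 0.095 for *Bcl6*, -0.35 to 0.0055 for *Prdm1*, -0.089 to 0.081 for *Batf*, -0.027 to 0.24 for *Bhlhe40*, -0.21 to 0.31 for *Foxp3*, -0.19 to 0.12 for *Cd4*, -0.17 to 0.0095 for *Irf8*, -0.21 to 0.0072 for *Cxcr3*, -0.088 to 0.29 for *Ccr4*, -0.12 to 0.25 for *Ccr6*, -0.18 to 0.11 for *Icos* and -0.18 to 0.53 for *Klrg1*. It gave -0.22 to 0.23 for *Tbx21* minus *Gata3* and -0.33 to 0.20 for *Prdm1* minus *Bcl6*. Over all genes, 7 calls became 0 without a trend, 19 with sample quality weights, 18 with the melanoma covariate, and 0 to 8 without 1 library (0 without control replicate 3 or Nr3c1-Foxp3Cre replicate 2, 1 without Nr3c1-Foxp3Cre replicate 1 or 3). Of the lists, 1 gene, *Id2*, was called with the melanoma covariate and 0 without any 1 library. The causes were not tested.

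The replicate numbers are not stated to pair the samples, and deviations of same-numbered libraries had correlations of -0.117, -0.329 and -0.0246. With the replicate block 0 genes were called in place of 7, 275 had an unadjusted p under 0.05, and 0 of 9 factors were called. With 3 libraries a genotype, the interval of the fold change reaches from 0.916 to 1.98 for *Irf4* and from 0.582 to 1.42 for *Bcl6*.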
